A study of Rattus norvegicus with 48 samples.

Results

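The miR-26 family in rat serum and ulna bone comprised 2 of the 763 mature miRNAs listed in each library, rno-miR-26a-5p and rno-miR-26b-5p, and was selected by these names. Of the 763 miRNAs, 629 had a read in at least 1 library, and both family members had reads in all 48 libraries. Small RNA sequencing was performed in 32 sera and 16 ulna bones of wild-type (WT) and ZDF rats, which were compared to describe miRNA patterns under anti-osteoporotic treatments. ZDF rats (Zucker diabetic fatty, fa/fa) carry a homozygous leptin receptor mutation and were labelled as a model of type II diabetes, and the WT rats were their lean counterparts (+/+). All rats were male, had a surgical defect in the femur, ate a high-fat, high-carbohydrate chow, and were sampled after 12 weeks of treatment. There were 5 sera each of placebo-treated and PTH-treated (parathyroid hormone) rats of either genotype and 4 each of anti-sclerostin-treated rats of either genotype, beside 4 of insulin-treated ZDF rats. The bones were 4 each of placebo-treated and PTH-treated WT and ZDF animals. The labels give no age and do not link a bone to the serum of the same rat. The ulna was homogenized whole, so a lower number of cells of a type and less of a miRNA per cell cannot be told apart in these data.

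MiRNAs guide the Argonaute silencing complex to messenger RNAs, and the seed, bases 2 to 8 of the mature strand, sets most of the pairing. Members of a family share the seed and are therefore predicted to bind largely the same messenger RNAs. miR-26a has been studied as a regulator of osteogenic differentiation in mesenchymal cells and of insulin signalling in the liver. The genes of this family lie within those of the CTDSP phosphatases, and in the rat annotation Mir26a lies within the span of Ctdspl and Mir26b within that of Ctdsp1.

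The mature strands from RefSeq (GRCr8) are given 5′ to 3′ to show how little separates the members, with the seed in capitals.
rno-miR-26a-5p: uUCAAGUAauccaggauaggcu
rno-miR-26b-5p: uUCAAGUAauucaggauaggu
The first lies on the plus strand at chr8:127633063-127633084 and the second on the plus strand at chr9:83425723-83425743. miR-26a-5p has 22 bases and miR-26b-5p 21, and 19 of the 21 positions that both have are identical. Counted from 1 at the 5′ end, with the base of miR-26a-5p first, the differences are C11U and C21U, both outside the seed. Among 693 mature rat strands in the table, only these 2 carry the seed UCAAGUA. The table matched 686 of the 763 names in the files. The authors' mapping to miRBase tolerated a mismatch, and a read that ends before base 21 differs between the members at C11U alone. How many reads this moved between the members was not tested.
The passenger strands from the other arm of each hairpin are shown because they were nearly absent from the libraries.
rno-miR-26a-3p: cCUAUUCUugguuacuugcac
rno-miR-26b-3p: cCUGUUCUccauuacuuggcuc
Over the 16 bones, miR-26a-3p was counted at 8 reads beside 400826 of miR-26a-5p, and miR-26b-3p at 75 reads beside 59584 of miR-26b-5p. Over the 32 sera, the counts were 13 reads of miR-26a-3p beside 16072 of the 5p strand and 17 reads of miR-26b-3p beside 8279. No comparison was made for the passenger strands, which had a read in 5 and 14 of the 16 bones and in 10 and 11 of the 32 sera.

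Libraries held 28015 to 205664 miRNA reads in serum and 41627 to 1398702 in bone. Of the 6 mesenchymal and cartilage markers none was at 0 in bone, and their sum was 26387 to 76669.5 RPM, the reads scaled to all miRNA reads of a library. In serum none was at 0 either, and the sum of 16200 to 50698 RPM overlapped that of bone. The leading marker, miR-140-3p, had a mean of 29252 RPM in serum and 18828 RPM in bone. It made up most of the serum sum, whose median was 28947.5 RPM, so the overlap does not hold for each marker. Another of the 6, miR-199a-5p, was higher in bone than in serum of placebo-treated WT rats, as given below. The 7 striated muscle markers, led by miR-133a-3p, summed to 53507 to 340800 RPM in bone, and miR-208a-3p was at 0 in 3 of the 4 bone groups. The 5 erythrocyte markers, led by miR-486, summed to 67106 to 371835 RPM in serum. Over the 32 sera, markers of leukocytes and platelets (6, led by miR-223-3p) ranged from 13992.5 to 78083 RPM in serum, and those of hepatocytes (3, led by miR-192-5p) from 770.0 to 22735. The bone of a PTH-treated WT rat, numbered 2, stood apart with the smallest bone library, and the values of the family that rest on PTH-treated WT bones are also given without it.

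miR-26a-5p was among the most abundant miRNAs of bone and a minor one in serum, and miR-26b-5p was enriched in bone to a lesser degree. By reads, miR-26a-5p held rank 1 to 4 in 15 of 16 bones and rank 10 in bone 2 of the PTH-treated WT rats, and made up 2.52% to 10.9% of all miRNA reads. In serum its rank was 22 to 43 and its share 0.287% to 1.04%. miR-26b-5p held rank 18 to 45 in bone and 30 to 63 in serum.

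On the RPM scale, miR-26a-5p was at 68594, 39752, 47024 and 45631 in the bones of placebo-treated WT rats and at 109467, 51942, 85368 and 89035 in those of placebo-treated ZDF rats. The sera of placebo-treated WT rats held 5222, 3754, 10399.9, 5542 and 4003, and those of placebo-treated ZDF rats 7450.1, 4487, 6839.6, 4879 and 5983. Every placebo bone thus lay above every placebo serum of the same genotype. For miR-26b-5p the bones held 9926, 7150.4, 8611 and 6975 in WT and 12353, 8652, 13325 and 11599.6 in ZDF rats. Its sera held 2951, 1687, 6408, 2386 and 2666 in WT and 4248, 1743, 5096, 2238 and 2817 in ZDF rats. The tissues were separate here too, with the highest WT serum just below the lowest WT bone. In the edgeR test given below, 41.9% of all miRNAs tested in placebo-treated WT and 46.0% in placebo-treated ZDF rats were higher in bone.

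**Figure D1:**
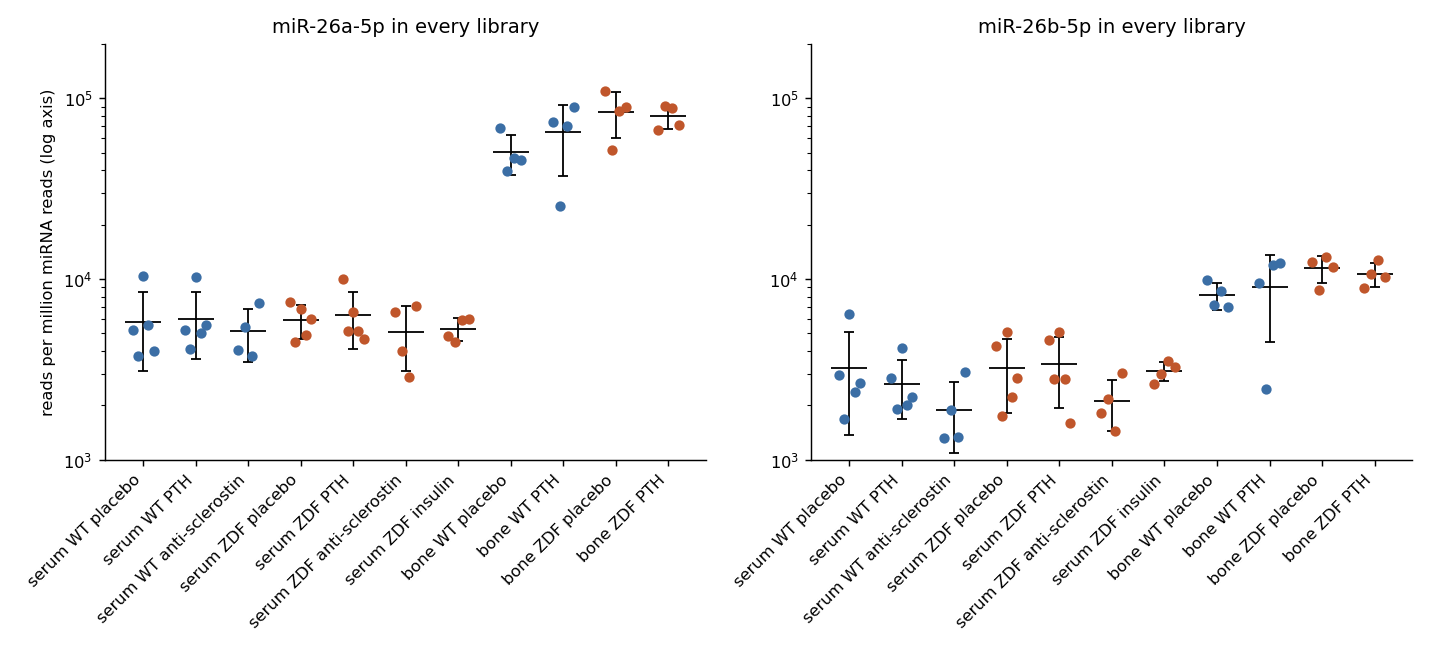
RPM of miRNA reads (log axis) of miR-26a-5p (left) and miR-26b-5p (right) in the 11 groups, with a point for each library (blue, WT; orange, ZDF) and the mean ± SD in black. The 16 bones lie above the 32 sera for miR-26a-5p, while the lowest bone of miR-26b-5p, at 2474 in the PTH-treated WT group, lies within the serum range.

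Both members passed the test between bone and serum in each of the 4 groups for which both tissues were sequenced. The test was edgeR's quasi-likelihood test on TMM-normalized counts with a call at FDR < 0.2, FDR being the Benjamini-Hochberg adjusted p-value over all miRNAs tested. The log2 fold change of miR-26a-5p was 2.97 (standard error 0.40, FDR 1.34e-05) in placebo-treated WT, 3.87 (standard error 0.31, FDR 5.24e-08) in placebo-treated ZDF, 3.04 (standard error 0.53, FDR 1.04e-05) in PTH-treated WT and 3.92 (standard error 0.38, FDR 4.17e-07) in PTH-treated ZDF rats. For miR-26b-5p it was 1.17 (standard error 0.39, FDR 0.0149), 1.86 (standard error 0.35, FDR 0.000146), 1.38 (standard error 0.57, FDR 0.0311) and 1.89 (standard error 0.39, FDR 0.000349) in the same order. Most miRNAs differ between these tissues, with 80.6%, 86.1%, 79.9% and 81.6% of those tested past the threshold in either direction and 41.9%, 46.0%, 37.5% and 46.3% higher in bone. A call here is thus near the background of the tissues. In WT bones of the PTH group, miR-26b-5p spanned 9560.2, 2474, 11948 and 12236 and overlapped the sera, which held 2839, 1903, 4169, 1998 and 2223, bone 2 being the low one. Without bone 2 the log2 fold change of miR-26b-5p there was 1.82 (FDR 0.00214).

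Ordered by mean RPM, the 4 bone groups ranked above the 7 serum groups for both members. miR-26a-5p was at 83953 ± 23829 (SD, n = 4) in placebo-treated ZDF, 79555 ± 12263 (SD, n = 4) in PTH-treated ZDF, 64822 ± 27618 (SD, n = 4) in PTH-treated WT and 50250.3 ± 12629 (SD, n = 4) in placebo-treated WT bones. The serum means ran from 5126 under anti-sclerostin in ZDF rats to 6309 under PTH in ZDF rats. For miR-26b-5p the bone groups followed the same order, from 11482 ± 2015 (SD, n = 4) to 8165 ± 1384 (SD, n = 4). Its serum means ran from 1895 under anti-sclerostin in WT rats to 3372 under PTH in ZDF rats. For each member, 9 of the 10 pairs of neighbouring groups overlapped in their libraries, the exception being the step from bone to serum.

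The balance of the 2 members differed between tissues, since miR-26a-5p exceeded miR-26b-5p by more in bone than in serum. This ratio is taken within a library and does not depend on scaling between libraries. In bone, the reads of miR-26a-5p over those of miR-26b-5p were 6.91, 5.56, 5.46 and 6.54 in placebo-treated WT and 8.86, 6.00, 6.41 and 7.68 in placebo-treated ZDF rats. Under PTH they were 7.75, 10.2, 5.91 and 7.30 in WT and 7.5, 8.55, 6.98 and 6.97 in ZDF bones. The lowest bone was 5.46 and the highest serum 3.59, so that no serum reached any bone. How often other pairs of miRNAs separate the tissues in this way was not tested. By edgeR, 79.9% to 86.1% of the miRNAs tested differed between bone and serum in the 4 groups. The sera ranged down to 1.3 with a median of 2.14, against 6.98 in bone.

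On the log2 scale with 0.5 reads added, bone exceeded serum in this ratio by 1.71 in placebo-treated WT, 1.88 in placebo-treated ZDF, 1.74 in PTH-treated WT and 1.94 in PTH-treated ZDF rats. The 2-sided exact permutation p was 0.00794 each, the smallest that 4 bones against 5 sera allow, and 0.0437 after adjustment over the 22 comparisons made. Most of the sequenced bones and sera were of the same animals, which this test does not use. The serum with the fewest reads of the family, from an anti-sclerostin-treated ZDF rat, held 183 reads of miR-26a-5p and 51 of miR-26b-5p, so that miR-26a-5p was 78.2% of the pair (95% exact binomial interval 72.4% to 83.3%). That serum also had the highest ratio of all sera. The interval covers counting error only, and PCR copies are not separate molecules.

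**Figure D2:**
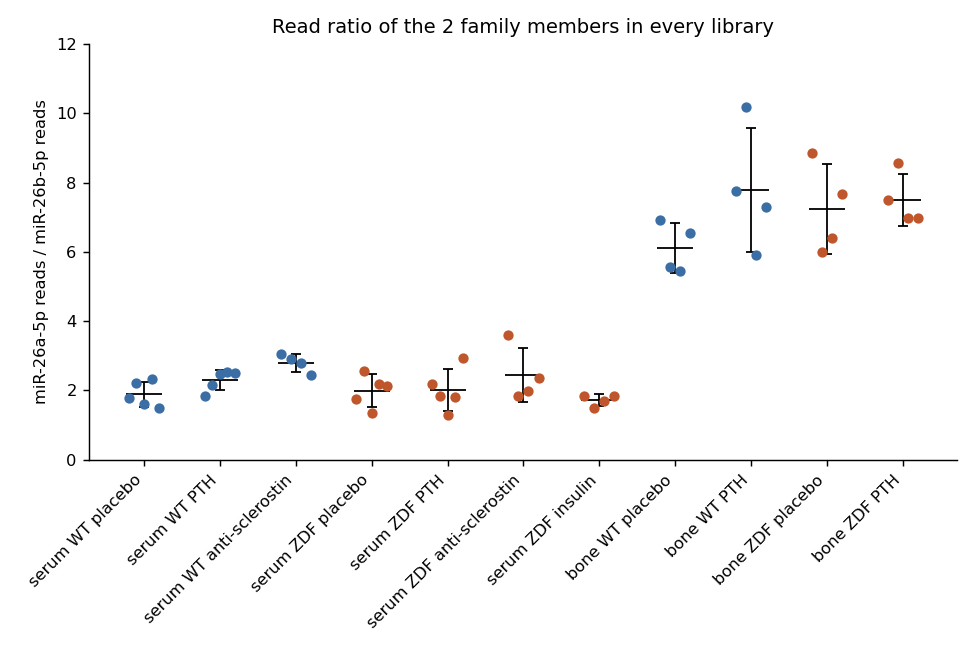
Reads of miR-26a-5p divided by those of miR-26b-5p in each library of the 11 groups, with the mean ± SD in black (blue, WT; orange, ZDF). The 16 bones lie between 5.46 and 10.2 and the 32 sera between 1.3 and 3.59, without overlap.

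In ulna bone under placebo, both members were higher in ZDF than in WT rats in these libraries, but neither passed FDR < 0.2. On the TMM-normalized scale over the 16 bones, miR-26a-5p was at 58648, 37709, 43849.5 and 58786 CPM (counts scaled to a common library size) in WT and 105236, 69694, 65137 and 85221 CPM in ZDF bones. miR-26b-5p was at 8487, 6783, 8029 and 8986 CPM in WT and 11876, 11608, 10167 and 11103 CPM in ZDF bones. For each member, the lowest ZDF bone lay above the highest WT bone. The means were 81322 ± 18113 (SD, n = 4) in ZDF against 49748 ± 10656 (SD, n = 4) in WT for miR-26a-5p, and 11188 ± 752 (SD, n = 4) against 8071 ± 943 (SD, n = 4) for miR-26b-5p. The exact permutation p was 0.0286 for each, the smallest that 4 against 4 allow, and 0.126 after adjustment over the 22 comparisons. Of the miRNAs with a read, 3.28% were higher in ZDF without overlap of the groups.

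With edgeR, the log2 fold change between ZDF and WT bones was 0.69 (standard error 0.29, FDR 0.258) for miR-26a-5p, with a 95% confidence interval of 0.048 to 1.33, and 0.45 (standard error 0.24, FDR 0.354) for miR-26b-5p, with an interval of −0.074 to 0.97. In this comparison 2.55% of the miRNAs tested passed. The separation of the groups depended on the scaling, because with library totals in place of TMM the highest WT bone reached 68594 and the lowest ZDF bone 51942 for miR-26a-5p. The difference on the log2 scale was then 0.72 for miR-26a-5p and 0.49 for miR-26b-5p, with an exact permutation p of 0.0571 each. With the deposited RPM of all reads of a library it was 0.34 (exact permutation p = 0.400) and 0.11 (exact permutation p = 0.743). Leaving out a bone at a time gave 0.47 to 0.83 for miR-26a-5p, and it passed in 2 of 8 such fits, without WT bone 1 (FDR 0.107) and without ZDF bone 2 (FDR 0.116). The share of all miRNAs that passed in these 2 fits is not given here, so neither call is set against its background.

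Under PTH the order of the genotypes was the same, with overlap. miR-26a-5p was at 79070.5, 23835, 63512 and 82702 CPM in WT and 67353, 100648, 93395 and 79202 CPM in ZDF bones, and edgeR's log2 fold change was 0.44 (standard error 0.31, FDR 0.492). miR-26b-5p was at 10199.5, 2338, 10744 and 11329 CPM in WT and 8983, 11765, 13373 and 11361 CPM in ZDF bones, and edgeR's log2 fold change was 0.41 (standard error 0.39, FDR 0.642). In this comparison 3.27% of the miRNAs tested passed. Without WT bone 2 the differences were 0.22 and 0.12.

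When all 16 bones were fitted together with treatment as a term, a fit chosen after the data were examined, miR-26a-5p was higher in ZDF by 0.58 (standard error 0.23, FDR 0.161) and passed, as did 20.6% of the miRNAs tested. Without WT bone 2 of the PTH group it was 0.46 (FDR 0.141), with 22.9% of the miRNAs past the threshold. The values for miR-26b-5p were 0.43 (FDR 0.320) and 0.28 (FDR 0.337), and it did not pass in either fit. The read ratio of the members differed between ZDF and WT bones by 0.23 on the log2 scale under placebo (exact permutation p = 0.171, adjusted 0.365) and by −0.030 under PTH (exact permutation p = 0.857, adjusted 0.898), with overlap of the genotypes in both. Without WT bone 2 the ratio difference under PTH was 0.11.

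Markers of cell types also differed among these bones. The mesenchymal and cartilage markers, led by miR-140-3p, summed to 45692, 76669.5, 73330.1 and 42146 RPM in placebo-treated WT and to 30171, 31208, 30354 and 29672 in placebo-treated ZDF bones, lower in every ZDF bone. Their part in the family's difference cannot be told apart from genotype here. In a fit with their log2 sum as a covariate, chosen after the data were examined, the log2 fold change was 0.13 (standard error 0.52) for miR-26a-5p and 0.23 (standard error 0.43) for miR-26b-5p. Both were far from passing (FDR 0.989), and 0% of the miRNAs tested passed by edgeR in that fit (1 had an unadjusted p under 0.05). The striated muscle markers summed to 62959.8, 132170, 241309 and 329872 in placebo-treated WT and 101810, 340800, 122596 and 80739 in placebo-treated ZDF bones and overlapped. Most of this sum was miR-133a-3p, with a mean of 186610 RPM in placebo-treated WT and 154534 RPM in placebo-treated ZDF bones. The covariate and the correlations given below therefore follow mainly that marker and do not stand for the whole list. By edgeR, 2 of the 6 muscle markers tested were higher in ZDF, led by miR-1-3p (log2 fold change 1.23, FDR 0.199), and 1 of the 6 mesenchymal and cartilage markers was lower, miR-214-3p (log2 fold change −2.14, FDR 0.199), where 2.13% of all miRNAs tested were higher and 0.426% lower. At an unadjusted p under 0.05 were 3 of the 6 muscle, 6 of the 6 mesenchymal and cartilage and 3 of the 6 leukocyte and platelet markers. Of all 235 miRNAs tested, 41 were. The median log2 fold changes of these lists were 0.59, −1.03 and −0.50, against −0.048 over all miRNAs. With the muscle sum as a covariate, in a fit likewise chosen after the data were examined, the log2 fold change of miR-26a-5p was 0.64 (FDR 0.126). In that fit 20.4% of the miRNAs passed, against 2.55% without the covariate. Across the 16 bones, the Pearson r of the muscle sum was 0.047 with miR-26a-5p (Spearman rho 0.035, permutation p = 0.868 and 0.902, adjusted 0.868 and 0.902, r = 0.087 without the 2 bones farthest from the median sum). With miR-26b-5p it was 0.23 (rho 0.097, permutation p = 0.418 and 0.719, adjusted 0.502 and 0.863, r = 0.23 without those 2 bones). Without WT bone 2 of the PTH group, r was −0.27 with miR-26a-5p and −0.18 with miR-26b-5p. Under PTH the muscle sum was 64848, 55661, 53507 and 71747 RPM in WT and 176876, 141423, 123131 and 115721 RPM in ZDF bones, without overlap. By edgeR, 1 of the 6 muscle markers tested was higher in ZDF there, miR-133a-3p, beside 2.8% of all miRNAs tested. The part of muscle in the family's values under PTH was not tested.

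**Figure D3:**
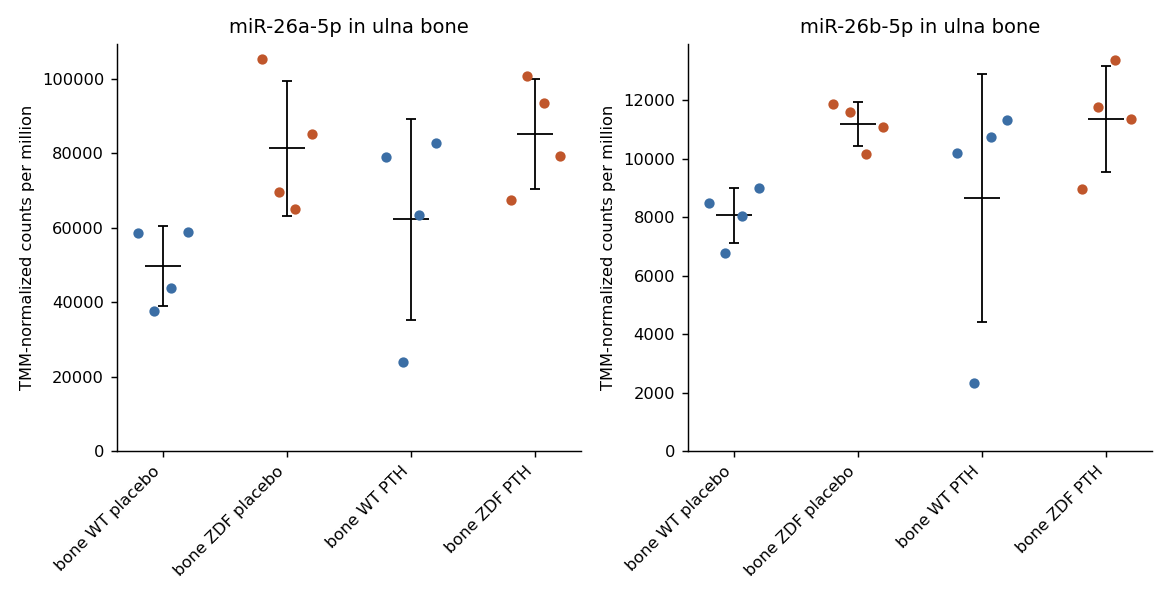
TMM-normalized CPM of miR-26a-5p (left) and miR-26b-5p (right) in the 16 ulna bones, with a point for each bone and the mean ± SD in black (blue, WT; orange, ZDF). The placebo-treated ZDF bones lie above the placebo-treated WT bones for both members, and WT bone 2 of the PTH group is the lowest of all.

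PTH against placebo gave no call for either member in bone. In ZDF rats the log2 fold change was 0.011 (standard error 0.26, FDR 0.990) for miR-26a-5p, with an interval of −0.56 to 0.58, and −0.027 (standard error 0.22, FDR 0.969) for miR-26b-5p, with an interval of −0.51 to 0.45, where 0.0% of the miRNAs tested passed by edgeR (13 had an unadjusted p under 0.05, and DESeq2 called 1). In WT rats it was 0.31 (standard error 0.37, FDR 0.709) and 0.065 (standard error 0.41, FDR 0.956), where 5.41% passed. Without WT bone 2 of the PTH group, the WT values were 0.53 for miR-26a-5p and 0.36 for miR-26b-5p. The read ratio did not pass either, with a log2 difference of 0.064 in ZDF (exact permutation p = 0.686) and 0.33 in WT rats (exact permutation p = 0.114), the latter 0.19 without that bone. The response to PTH differed between ZDF and WT bones by −0.28 (standard error 0.47, FDR 0.903) for miR-26a-5p and −0.090 (standard error 0.50, FDR 0.977) for miR-26b-5p, and 0.0% of the miRNAs passed this interaction test by edgeR (13 at an unadjusted p under 0.05). Without that bone the interaction was −0.46 for miR-26a-5p and −0.31 for miR-26b-5p.

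In serum, ZDF and WT rats overlapped for both members. Under placebo, miR-26a-5p was at 5251, 3249.5, 9908, 4696 and 4015 CPM in WT and 6943, 4478, 6324, 5374 and 5076 CPM in ZDF rats. miR-26b-5p was at 2968, 1461, 6105, 2022 and 2674 CPM in WT and 3959, 1739.8, 4711, 2465 and 2389.9 CPM in ZDF rats. WT serum 3 was the highest of the 10 for both. The log2 fold change was 0.0067 (standard error 0.31, FDR 0.989) for miR-26a-5p and −0.035 (standard error 0.38, FDR 0.989) for miR-26b-5p, with intervals of −0.65 to 0.66 and −0.83 to 0.76, where 6.1% of the miRNAs tested passed. The hepatocyte markers differed in this comparison, with 3 of 3 tested higher in ZDF, led by miR-122-3p (log2 fold change 2.09, FDR 0.0197), where 4.27% of all miRNAs tested were higher and 1.83% lower, and their part in the family's values was not tested. Under other choices of scaling or filter each of these values near 0 changed sign.

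The same comparison under PTH gave 0.054 (standard error 0.36, FDR 0.936) and 0.39 (standard error 0.42, FDR 0.896), and under anti-sclerostin −0.064 (standard error 0.37, FDR 0.996) and 0.11 (standard error 0.36, FDR 0.996), with 0.0% and 0.0% of the miRNAs past the threshold by edgeR, 5 and 11 at an unadjusted p under 0.05, and 0 and 9 called by DESeq2. The ratio of the members differed between genotypes by 0.066 under placebo, −0.23 under PTH and −0.24 under anti-sclerostin on the log2 scale, and the exact permutation p was at least 0.314. The difference between genotypes in placebo-treated rats was larger in bone than in serum by 0.93 (standard error 0.50, FDR 0.582) for miR-26a-5p and 0.73 (standard error 0.53, FDR 0.615) for miR-26b-5p, which did not pass. By edgeR 0.0% of the miRNAs passed that test, and 22 had an unadjusted p under 0.05.

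None of the treatments gave a call for either member against placebo in serum. PTH-treated WT sera held 5661, 3952, 9902, 3827 and 7237 CPM of miR-26a-5p and 3086, 1828, 4004, 1516 and 2901 CPM of miR-26b-5p. PTH-treated ZDF sera held 8954, 5438, 8019, 4745 and 4628 and 4095, 2971, 6180.3, 2600.4 and 1572 CPM. Every one of these ranges overlapped that of placebo. The log2 fold changes for PTH were 0.046 (standard error 0.39, FDR 0.992) and −0.33 (standard error 0.42, FDR 0.992) in WT and 0.15 (standard error 0.28, FDR 0.993) and 0.16 (standard error 0.37, FDR 0.993) in ZDF rats, with 0.0% and 0.0% of the miRNAs past the threshold by edgeR, 2 and 4 at an unadjusted p under 0.05, and 0 in both called by DESeq2. When ZDF libraries were scaled to the synthetic controls added at extraction instead, the PTH values in ZDF rats were 1.83 and 1.94 (FDR 0.0897 each) and passed. The share of all miRNAs that passed with these controls is not given here, so a shift common to many miRNAs cannot be told apart from one of the family. Reads of these controls ranged from 307319 to 574298 in placebo-treated and from 51220 to 519463 in PTH-treated ZDF sera. The response to PTH differed between ZDF and WT sera by −0.015 (standard error 0.46, FDR 0.988) and 0.38 (standard error 0.58, FDR 0.963) for the 2 members, where 0.0% of the miRNAs passed by edgeR (8 at an unadjusted p under 0.05).

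Under anti-sclerostin, neither member passed against placebo in either genotype, and the read ratio was separate from placebo in WT rats and overlapped it in ZDF rats. In WT sera, miR-26b-5p was at 1772, 1608, 1453 and 2555 CPM and miR-26a-5p at 5397, 4662, 4072 and 6228 CPM. In ZDF sera the values were 1838, 1920.3, 1327 and 2472 CPM and 6594, 3553, 2645 and 5824 CPM. Both members overlapped placebo in both genotypes. The log2 fold change of miR-26b-5p was −0.79 (standard error 0.40, FDR 0.506) in WT and −0.61 (standard error 0.38, FDR 0.575) in ZDF rats, and that of miR-26a-5p was −0.17 (standard error 0.35, FDR 0.814) and −0.23 (standard error 0.33, FDR 0.817), with 0.0% and 1.27% of the miRNAs past the threshold by edgeR, 18 and 14 at an unadjusted p under 0.05, and 3 and 13 called by DESeq2. Leaving out a serum at a time moved miR-26b-5p over −0.91 to −0.41 in WT, the smallest difference being without placebo-treated serum 3, and over −0.88 to −0.39 in ZDF rats, the smallest likewise without placebo-treated serum 3. Scaled to the extraction controls, it was −2.09 in WT (FDR 0.127), which passed, and −0.42 in ZDF rats (FDR 0.750). The share of all miRNAs that passed with that scaling is not given here. In a fit of both genotypes with genotype as a term, chosen after the data were examined, miR-26b-5p was lower by 0.68 (log2 fold change −0.68, standard error 0.27, FDR 0.199), just past the threshold, with 10.6% of the miRNAs. miR-26a-5p was at −0.17 (FDR 0.692) in that fit.

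The read ratio was 3.05, 2.90, 2.80 and 2.44 in anti-sclerostin-treated WT sera and 1.77, 2.22, 1.62, 2.32 and 1.50 under placebo. Every treated WT serum lay above every placebo-treated one, a log2 difference of 0.58 (exact permutation p = 0.0159, adjusted 0.0698 over the 22 comparisons). How often other pairs of miRNAs separate these groups was not tested. In ZDF rats the ratio was 3.59, 1.85, 1.99 and 2.36 under anti-sclerostin and 1.75, 2.57, 1.34, 2.18 and 2.12 under placebo, a log2 difference of 0.28 (exact permutation p = 0.357, adjusted 0.491), with overlap. Leaving out a serum at a time gave 0.50 to 0.66 in WT and 0.077 to 0.39 in ZDF rats, the latter smallest without anti-sclerostin-treated serum 1. With labels exchanged within each genotype over the 18 sera, a test added after the data were examined, the difference was 0.43 (exact permutation p = 0.0134). The response to anti-sclerostin did not pass a test of its difference between genotypes, which was −0.036 (standard error 0.46, FDR 0.961) for miR-26a-5p and 0.20 (standard error 0.55, FDR 0.886) for miR-26b-5p, with 0.0% of the miRNAs past the threshold by edgeR (4 at an unadjusted p under 0.05).

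Insulin-treated ZDF sera held 6559, 4527, 8330.2 and 7445 CPM of miR-26a-5p and 3566, 3041, 4936 and 4031 CPM of miR-26b-5p. Both overlapped placebo, with log2 fold changes of 0.19 (standard error 0.25, FDR 0.666) and 0.28 (standard error 0.31, FDR 0.627), in a comparison in which 26.5% of the miRNAs tested passed. With library totals in place of TMM the values were −0.16 and −0.057, so their direction depended on the scaling. The read ratio was 1.84, 1.49, 1.69 and 1.85, a log2 difference from placebo of −0.19 (exact permutation p = 0.349).

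A single call was obtained in serum, for miR-26b-5p between insulin and anti-sclerostin in ZDF rats. The insulin-treated sera lay at 3041 CPM or more and the anti-sclerostin-treated ones at 2472 CPM or less. The means were 3894 ± 804 (SD, n = 4) and 1889 ± 468 (SD, n = 4), and the log2 fold change was 0.91 (standard error 0.33, FDR 0.143), with an exact permutation p of 0.0286 for the levels (0.126 adjusted). In this comparison 29.1% of the miRNAs tested passed, 12.8% of the tested being higher under insulin, and 2.99% of those with a read were higher without overlap. For miR-26a-5p the log2 fold change was 0.39 (standard error 0.37, FDR 0.533). The read ratio was lower under insulin, by a log2 difference of −0.46 (exact permutation p = 0.0286, adjusted 0.105). The groups did not overlap, but nearly touched, with the highest insulin-treated serum at 1.847 and the lowest anti-sclerostin-treated one at 1.850. In the same order, the exact binomial intervals for the share of miR-26a-5p overlapped, at 60.8% to 68.8% and 61.8% to 68.0%. The separation thus rested on a gap smaller than counting error. The call for miR-26b-5p was lost with library totals, at 0.56 (FDR 0.258), and without any of 5 of the 8 sera, at an FDR of up to 0.295.

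Neither member passed in the other comparisons of serum groups. The log2 fold change of miR-26b-5p was −0.87 (standard error 0.44, FDR 0.530) for anti-sclerostin against PTH in ZDF rats, −0.42 (standard error 0.39, FDR 0.977) for the same in WT rats and 0.20 (standard error 0.37, FDR 0.846) for insulin against PTH in ZDF rats. Relative to placebo-treated WT rats it was 0.34 (standard error 0.36, FDR 0.650) in insulin-treated and −0.53 (standard error 0.42, FDR 0.635) in anti-sclerostin-treated ZDF rats. The values of miR-26a-5p in these 5 comparisons lay between −0.41 and 0.29, with an FDR of at least 0.609. The miRNAs past the threshold were 0.613%, 0.0%, 6.62%, 19.5% and 12.5% of those tested in the order named. For anti-sclerostin against PTH in WT rats, where edgeR called 0, 2 had an unadjusted p under 0.05 and DESeq2 called 0.

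**Figure D4:**
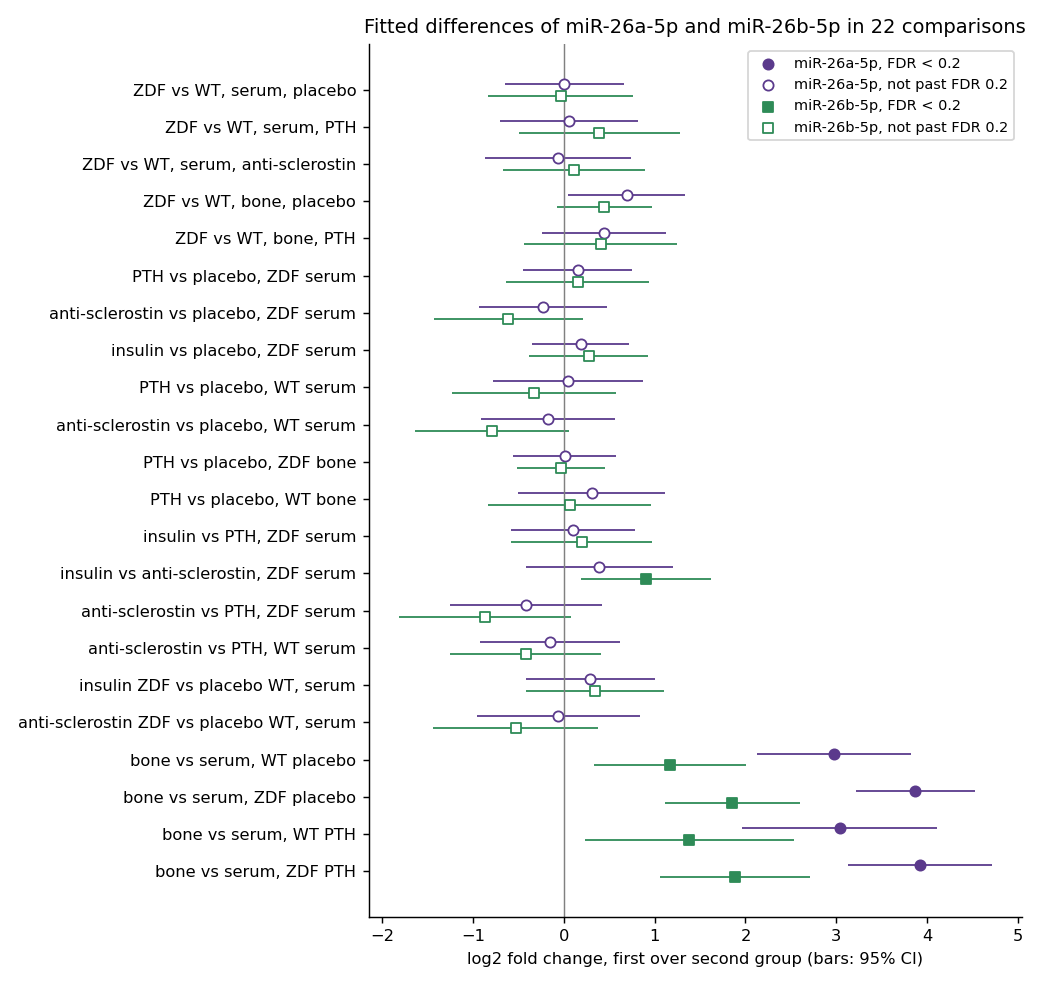
Log2 fold changes of miR-26a-5p (circles) and miR-26b-5p (squares) from edgeR in the 22 comparisons, the first-named group over the second, with 95% confidence intervals as bars. Filled symbols passed FDR < 0.2, which were the 8 values between bone and serum and miR-26b-5p between insulin and anti-sclerostin in ZDF serum.

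Red blood cells release miR-451-5p when they lyse, and a hemolysis index is commonly taken as the reads of miR-451-5p over those of miR-23a-3p, here on the log2 scale. The index was 3.50, 3.18, 3.60 and 3.79 in insulin-treated, 1.60, −0.81, −0.93 and −0.15 in anti-sclerostin-treated and 1.2, 0.74, 1.41, 0.55 and −0.49 in placebo-treated ZDF sera. The insulin-treated sera thus lay above the other 2 groups. In WT sera it was −0.44, −0.33, −1.58 and 0.56 under anti-sclerostin and 0.67, −0.51, 3.24, 0.79 and 3.3 under placebo. The erythrocyte markers moved likewise, with 311017, 310886, 371835 and 361776 RPM under insulin and 258005, 89937, 97814 and 175791 under anti-sclerostin in ZDF rats, none of the 5 markers being at 0. By edgeR, 4 of the 5 were higher under insulin than under anti-sclerostin, led by miR-451-5p (log2 fold change 3.03, FDR 0.00767), and 2 of 2 hepatocyte markers tested were lower, led by miR-192-5p (log2 fold change −1.49, FDR 0.143), beside 12.8% and 16.3% of all miRNAs tested that were higher and lower.

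Over the 32 sera, miR-26b-5p rose with this index on the scale of log2 TMM-normalized CPM, with a Pearson r of 0.73 and a Spearman rho of 0.75 (permutation p = 1e-05 each, the smallest that 100000 resamples give). These p-values were 6e-05 after adjustment over the 6 relations computed. Without the 2 sera farthest from the median index r was 0.67. For miR-26a-5p, r was 0.50 and rho 0.53 (permutation p = 0.00383 and 0.00190, adjusted 0.00766 and 0.00380), and r was 0.43 without those 2 sera. The relations of the levels were computed on the TMM-normalized scale only, and the scale matters. Mean miR-26a-5p was 6715 CPM in insulin-treated against 5639 CPM in placebo-treated ZDF sera, but 5316 against 5928 RPM of miRNA reads. The log2 ratio of miR-26a-5p to miR-26b-5p fell with the index, with r = −0.64 and rho = −0.63 (permutation p = 0.000150 and 0.000190, adjusted 0.000450 and 0.000570), and r = −0.58 without the 2 sera. Within the 7 groups, as deviations from group means, r was 0.64 for miR-26b-5p (permutation p = 0.00229, adjusted 0.0137), 0.48 for miR-26a-5p (p = 0.0215, adjusted 0.0646) and −0.46 for the ratio (p = 0.0386, adjusted 0.0772), all by permutation within groups.

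With the index as a covariate, the log2 fold change of miR-26b-5p between insulin and anti-sclerostin was 0.57 (FDR 0.792) and no longer passed. Since the index of every insulin-treated serum lay above that of every anti-sclerostin-treated serum, index and treatment cannot be told apart in that comparison. In the WT comparison of anti-sclerostin with placebo, the covariate gave −0.025 for miR-26b-5p (FDR 0.998) and 0.32 for miR-26a-5p (FDR 0.984). In the ZDF comparison it gave −0.43 for miR-26b-5p (FDR 0.928) and −0.049 for miR-26a-5p (FDR 0.964).

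**Figure D5:**
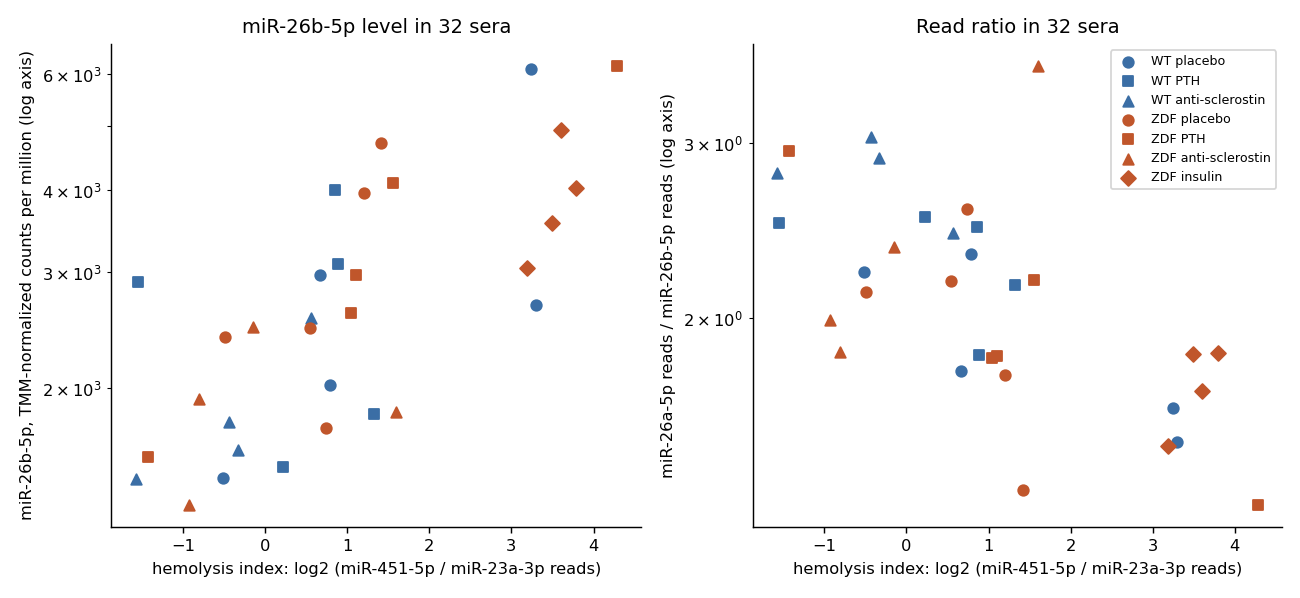
Left, miR-26b-5p (TMM-normalized CPM, log axis), and right, the read ratio of miR-26a-5p to miR-26b-5p (log axis), against the hemolysis index in the 32 sera, with colour for genotype and symbol for treatment. miR-26b-5p is higher and the ratio lower at a higher index, and the insulin-treated sera (diamonds) sit at 3.18 to 3.79 on the x axis.

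Libraries of a group varied by more than counting error in these levels, a spread in which rats, extraction and library preparation cannot be told apart. In bone the coefficient of variation between libraries was 18.0% to 63.5% for miR-26a-5p and 6.87% to 89.0% for miR-26b-5p over the 4 groups, where counting alone gives 0.615% to 1.82% and 1.69% to 5.57%. The highest of these were those of the PTH-treated WT bones, which fell to 14.2% and 5.26% without bone 2. In serum it was 17.6% to 44.7% and 20.7% to 57.3% over the 7 groups, where counting gives 4.32% to 6.11% and 6.14% to 9.97%. The read ratio varied by 9.59% to 30.6% in serum against 7.5% to 11.7% from counting, so that within some serum groups its spread was near the counting error.

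The members followed each other more closely over the bones than over the sera. Likeness was taken as the root-mean-square difference of log2(CPM + 1), each miRNA centred on its own mean, where 0 means the same pattern. A miRNA without any variation would differ from a member by that member's own root-mean-square deviation. This deviation was 0.541 for miR-26a-5p and 0.568 for miR-26b-5p in bone, and 0.456 and 0.615 in serum. In bone, over 16 libraries, the difference between the 2 members was 0.239, the smallest among 242 miRNAs for either member, where the median miRNA differed from miR-26a-5p by 0.945. Outside the family, miR-145-3p (0.295), miR-191a-5p (0.344) and miR-378b (0.359) were most like miR-26a-5p in bone. For miR-26b-5p these were miR-191a-5p (0.284), miR-107-3p (0.292) and miR-103-3p (0.293). Most of these bone neighbours changed without WT bone 2 of the PTH group. Over the 15 other bones the members differed by 0.203 and were still nearest to each other, but the closest outside the family were miR-1843a-5p (0.249), miR-99b-3p (0.286) and miR-25-3p (0.292) for miR-26a-5p, and miR-191a-5p (0.233), miR-99b-3p (0.247) and miR-340-3p (0.277) for miR-26b-5p. In serum, over 32 libraries, the members differed by 0.348. miR-181b-5p (0.340) was nearer to miR-26a-5p than miR-26b-5p was, followed outside the family by miR-221-3p (0.359) and miR-101a-3p (0.378). For miR-26b-5p in serum the nearest miRNA was miR-26a-5p, and outside the family miR-221-3p (0.479), miR-423-3p (0.518) and miR-181b-5p (0.532). These values are descriptions, since libraries share depth and scaling.

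Other miRNAs known from the processes in which miR-26a has been studied were taken as lists of 33 regulators of osteogenesis and 32 of insulin signalling, with 4 miRNAs in both. Between placebo-treated WT bone and serum, 16 of 29 tested osteogenesis regulators were higher and 6 lower in bone, with a median log2 fold change of 1.05 against 0.10 over all miRNAs, and the smallest FDR for miR-199a-5p (log2 fold change 5.20, FDR 9.73e-08). Of all miRNAs tested there, 41.9% were higher and 38.7% lower. Of the 30 tested insulin signalling regulators, 13 were higher and 10 lower, with a median of 0.36 and the smallest FDR for miR-122-5p (log2 fold change −6.88, FDR 2.56e-06). Between placebo-treated ZDF and WT bones, 1 of 29 osteogenesis regulators was higher and 1 lower, with a median of −0.31 against −0.048 over all miRNAs, and the muscle miRNA miR-206-3p (log2 fold change 1.16, FDR 0.199) led, beside 2.13% higher and 0.426% lower over all miRNAs. By edgeR, 0 of the 28 insulin signalling regulators passed in either direction there and 0 had an unadjusted p under 0.05, with a median of −0.090 and the smallest FDR for miR-24-3p (log2 fold change −0.74, FDR 0.353).

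Under PTH, 1 of 29 osteogenesis regulators was higher in ZDF bone and 0 were lower, the higher one being miR-133a-3p (log2 fold change 1.3, FDR 0.0354), which is also the leading striated muscle marker of bone. Of the insulin signalling regulators 3 of 28 were higher and 0 lower, led by let-7i-5p (log2 fold change 1.87, FDR 0.00857). Over all miRNAs tested 2.8% were higher and 0.467% lower. Without WT bone 2, 1 of 30 and 3 of 28 were higher and 0 lower by edgeR, beside 2.15% and 0% of all. In placebo-treated sera, 1 of 23 osteogenesis regulators was higher in ZDF rats, miR-31a-5p (log2 fold change 1.68, FDR 0.0262), and 4 of 27 insulin signalling regulators were, led by the liver miRNA miR-802-5p (log2 fold change 2.71, FDR 0.00475), while none of either list was lower, beside 4.27% higher and 1.83% lower of all miRNAs. Between insulin and anti-sclerostin in ZDF serum, 0 and 3 were higher and 5 of 21 and 10 of 27 were lower under insulin, and miR-29a-3p (log2 fold change −1.40, FDR 0.0683), which is in both lists, led both. Over all miRNAs tested 12.8% were higher and 16.3% lower. The median over all miRNAs there was −0.087, against −0.51 and −0.32 in the lists. Under anti-sclerostin against placebo in WT serum, 0 of 23 osteogenesis and 0 of 28 insulin signalling regulators passed by edgeR, with 3 and 1 at an unadjusted p under 0.05. Of all 171 miRNAs tested there, 0 passed by edgeR and 18 had an unadjusted p under 0.05.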

How the data were processed

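Small RNA libraries of 32 rat sera and 16 ulna bones were sequenced. The authors trimmed reads with cutadapt, mapped the rest to the genome and to miRBase entries (Bowtie, miRDeep2; mismatches were tolerated) and deposited raw read counts per mature miRNA. The deposited files also hold RPM of all reads of a library, which served as an alternative scale. Their column scaled to miRNA reads was not used. Libraries held 28015 to 205664 miRNA reads in serum and 41627 to 1398702 in bone.

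Groups were taken from the labels. The members and lists were chosen with earlier results of these data known. Counts of the 2 groups compared were fitted with edgeR 4.0.16 (quasi-likelihood test, legacy = TRUE, R 4.3.3) after filterByExpr and TMM normalization, and Benjamini-Hochberg FDR was computed over every miRNA tested, with calls at FDR < 0.2. There were 22 comparisons and 4 interaction tests. Intervals are 95%. Levels, as log2(CPM + 1), and the ratio of the members' reads with 0.5 reads added were compared with 2-sided exact permutation tests at p < 0.05, adjusted over the 22 comparisons. CPM was TMM-normalized over all libraries of a tissue, and library totals were used between tissues. Relations with the hemolysis index or muscle markers were tested with 100000 permutations. Alternatives covered the samples in the fit, scaling, DESeq2 1.42.0, filters, thresholds, covariates, pseudocounts and each library left out. The edgeR fit was tested on simulated data. No 2 libraries of a group were duplicates, as their counts differed by a chi-square of at least 15.3 per degree of freedom in each of 82 pairs. The labels do not name the animals, and p-values measure the spread between samples.

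The named miRNAs were the members, their passenger strands, the 3 miRNAs most like each member in each tissue among those passing filterByExpr (in bone also without 1 library that stood apart), and the list member with the smallest FDR per comparison described. Sequences were read from RefSeq tables of GRCr8, and no coordinates of the authors' build, Rnor.6.0, were used.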

Additional observations from a re-analysis of the deposited data

Results flagged for a closer look

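The level of miR-26b-5p in 1 ulna bone of a PTH-treated WT rat, numbered 2, lay far below the other 3 of its group. It was 2338 CPM on the TMM-normalized scale, against 10199.5, 10744 and 11329 CPM. The gap to the nearest bone was 0.874 of the whole range of the group, past Dixon's 95% critical value of 0.829 for 4 samples. Such a gap was tested in 33 combinations of group and measure, 1 of which passed, and chance marks about 1 in 20. miR-26a-5p was also lowest in this bone, with a gap of 0.674 of the range, and the ratio of the members was highest there. The library held 41627 miRNA reads, the fewest of the 16 bones, with 103 reads of miR-26b-5p and 1050 of miR-26a-5p. The part of library size in these values was not tested.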

How the results depend on the processing

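The 8 calls between bone and serum kept their direction and passed the threshold under every alternative run. Other comparisons gave values near 0, whose sign followed the processing. Over the alternatives to the edgeR log2 fold changes other than leaving out a library at a time, 48 values had the opposite sign, counted for each member and comparison. None of the values of opposite sign passed. The cause was not tested for any of these changes.

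Reversed log2 fold changes with a filter of at least 1 read (with or without independent filtering) were −0.027 for miR-26a-5p in ZDF against WT serum under placebo and −0.050 for miR-26b-5p in ZDF against WT serum under anti-sclerostin. The sign also turned with scaling to the extraction controls, at −1.16 for miR-26a-5p in ZDF against WT serum under placebo, 0.35 for miR-26a-5p in ZDF against WT serum under anti-sclerostin, 0.17 for miR-26a-5p in anti-sclerostin against placebo in ZDF serum, −0.17 for miR-26a-5p in PTH against placebo in WT serum, −0.94 for miR-26a-5p and −1.06 for miR-26b-5p in insulin against PTH and −0.26 for miR-26a-5p and −0.26 for miR-26b-5p in insulin-treated ZDF against placebo-treated WT serum. With both members summed to 1 row the reversed values were −0.0097 in ZDF against WT serum under placebo, 0.0088 in ZDF against WT serum under anti-sclerostin, −0.0096 in PTH against placebo in WT serum, 0.013 in PTH against placebo in ZDF bone, 0.20 in the PTH response in serum between genotypes and −0.14 in the anti-sclerostin response between genotypes. Under all groups of a tissue in 1 fit they were 0.069 for miR-26b-5p in ZDF against WT serum under placebo, −0.066 for miR-26b-5p in ZDF against WT serum under anti-sclerostin, 0.046 for miR-26a-5p in anti-sclerostin against placebo in WT serum and −0.0041 for miR-26a-5p in PTH against placebo in ZDF bone. For RLE size factors the values of opposite sign were 0.017 for miR-26b-5p in ZDF against WT serum under placebo and −0.025 for miR-26a-5p in PTH against placebo in ZDF bone. In fits with library totals without TMM the values turned to 0.0027 for miR-26b-5p in ZDF against WT serum under placebo, −0.16 for miR-26a-5p and −0.057 for miR-26b-5p in insulin against placebo in serum, −0.078 for miR-26a-5p in PTH against placebo in ZDF bone, −0.25 for miR-26a-5p and −0.12 for miR-26b-5p in insulin against PTH, −0.12 for miR-26a-5p and −0.055 for miR-26b-5p in insulin-treated ZDF against placebo-treated WT serum and 0.027 for miR-26a-5p in the PTH response in serum between genotypes. Sign changes under the hemolysis index as a covariate gave 0.31 for miR-26b-5p in ZDF against WT serum under placebo, −0.076 for miR-26a-5p and −0.024 for miR-26b-5p in ZDF against WT serum under PTH, −0.13 for miR-26b-5p in PTH against placebo in ZDF serum, −0.62 for miR-26a-5p and −1.17 for miR-26b-5p in insulin against placebo in serum, 0.14 for miR-26b-5p in PTH against placebo in WT serum, 0.32 for miR-26a-5p in anti-sclerostin against placebo in WT serum, −0.22 for miR-26a-5p and −0.45 for miR-26b-5p in insulin against PTH, −1.21 for miR-26a-5p in insulin against anti-sclerostin, −0.16 for miR-26a-5p and −0.30 for miR-26b-5p in insulin-treated ZDF against placebo-treated WT serum and 0.33 for miR-26a-5p in anti-sclerostin-treated ZDF against placebo-treated WT serum. The value of opposite sign under DESeq2 was −0.0033 for miR-26a-5p in PTH against placebo in ZDF bone. Calls were gained for ZDF against WT bone under placebo by miR-26a-5p in the fits of all 16 bones (0.58), of 15 bones (0.46) and with the muscle covariate (0.64), each chosen after the data were examined. They were also gained for PTH against placebo in ZDF serum with the extraction controls (1.83 and 1.94 for the 2 members), and by miR-26b-5p for anti-sclerostin against placebo in WT serum with them (−2.09) and in the fit of both genotypes (−0.68). The share of all miRNAs that passed with the extraction controls is not given here. The call of miR-26b-5p between insulin and anti-sclerostin was lost with library totals (0.56), at FDR < 0.05 (0.91), with the hemolysis index (0.57), with the extraction controls (1.3) and for the summed family (0.55). The exact tests of levels were lost with library totals and with the deposited RPM of all reads, at 0.72 and 0.34 for miR-26a-5p and 0.49 and 0.11 for miR-26b-5p in ZDF against WT bone under placebo, and 0.60 and 0.59 for miR-26b-5p between insulin and anti-sclerostin. With both strata together, the log2 ratio difference of ZDF against WT bone was 0.10 (exact permutation p = 0.404), opposite in sign to that under PTH alone, and the anti-sclerostin difference passed at 0.43.

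Where leaving out a library at a time changed a sign or a call, the log2 fold change ranged over −0.067 to 0.34 for miR-26a-5p and −0.17 to 0.38 for miR-26b-5p in ZDF against WT serum under placebo, −0.080 to 0.36 for miR-26a-5p in ZDF against WT serum under PTH, −0.35 to 0.10 for miR-26a-5p and −0.20 to 0.27 for miR-26b-5p in ZDF against WT serum under anti-sclerostin and 0.47 to 0.83 for miR-26a-5p in ZDF against WT bone under placebo. Further such ranges were −0.0031 to 0.24 for miR-26a-5p and −0.076 to 0.36 for miR-26b-5p in PTH against placebo in ZDF serum, 0.18 to 0.54 for miR-26b-5p in insulin against placebo in serum, −0.17 to 0.46 for miR-26a-5p and −0.48 to 0.17 for miR-26b-5p in PTH against placebo in WT serum and −0.21 to 0.13 for miR-26a-5p in anti-sclerostin against placebo in WT serum. More of them were −0.12 to 0.18 for miR-26a-5p and −0.13 to 0.039 for miR-26b-5p in PTH against placebo in ZDF bone, −0.081 to 0.36 for miR-26b-5p in PTH against placebo in WT bone, −0.039 to 0.24 for miR-26a-5p and −0.040 to 0.43 for miR-26b-5p in insulin against PTH and 0.75 to 1.31 for miR-26b-5p in insulin against anti-sclerostin. Still others were −0.39 to 0.065 for miR-26a-5p in anti-sclerostin against PTH in WT serum, 0.25 to 0.74 for miR-26b-5p in insulin-treated ZDF against placebo-treated WT serum, −0.42 to 0.070 for miR-26a-5p in anti-sclerostin-treated ZDF against placebo-treated WT serum, −0.26 to 0.30 for miR-26a-5p in the PTH response in serum between genotypes and −0.54 to 0.057 for miR-26a-5p and −0.38 to 0.31 for miR-26b-5p in the anti-sclerostin response between genotypes. Last, they were −0.31 to 0.16 for miR-26b-5p in the PTH response in bone between genotypes and 0.57 to 1.2 for miR-26a-5p in the genotype difference between tissues. For the log2 ratio, the ranges were −0.034 to 0.20 in ZDF against WT serum under placebo, −0.15 to 0.11 in ZDF against WT bone under PTH, −0.15 to 0.14 in PTH against placebo in ZDF serum, 0.22 to 0.37 in PTH against placebo in WT serum, −0.020 to 0.17 in PTH against placebo in ZDF bone, 0.19 to 0.45 in PTH against placebo in WT bone, −0.58 to −0.27 in insulin against anti-sclerostin and 0.21 to 0.35 in anti-sclerostin against PTH in WT serum. In these fits miR-26a-5p gained a call for ZDF against WT bone under placebo, and for the genotype difference between tissues without placebo-treated WT bone 1 (FDR 0.183). miR-26b-5p gained one for insulin against placebo without placebo-treated ZDF serum 3 (FDR 0.194) and for insulin-treated ZDF against placebo-treated WT serum without WT serum 3 (FDR 0.183). The share of all miRNAs that passed in the fits that gained a call is not given here. The ratio test between insulin and anti-sclerostin was lost without any 1 of the insulin-treated sera. Ratio tests passed for PTH against placebo without placebo-treated WT serum 4 in serum and without PTH-treated WT bone 3 in bone, and for anti-sclerostin against PTH without anti-sclerostin-treated WT serum 4.

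Counts of all miRNAs called moved with the tool, from 6 by edgeR to 34 by DESeq2 in ZDF against WT bone under placebo, from 7 to 25 under PTH and from 12 to 42 for PTH against placebo in WT bone. DESeq2 called neither member in those comparisons. No paired analysis was possible because the labels give no replicate numbers or animals that link samples. With 4 or 5 rats a group the intervals of most comparisons spanned 0.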
